A study of Homo sapiens with 6 samples.

Results

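The RUNX and ETS transcription factors described here are 10 genes, RUNX1, RUNX2, RUNX3, CBFB, ETS1, ETS2, ELF1, FLI1, ETV6 and GABPA, picked by gene symbol from the 26485 symbols of a deposited read count table. All 10 were in the table, and 7 of them had enough counts to be tested. The table covers 6 RNA sequencing libraries of OCI-LY8, a human lymphoma cell line: 3 from cells given a guide RNA against SETD1B, a histone methyltransferase gene, with the genotype label SETD1B knockout, and 3 from cells given the non-targeting guide sgNTC, with the genotype label WT and called controls below. The comparison asked what differs in this line when SETD1B is targeted. The series' design text speaks of OCI-LY19, a KMT2D mutant line, whereas all 6 sample labels name OCI-LY8, and the labels were followed. All 3 knockout libraries carry the name of the same guide. Nothing in the labels says whether the knockout cells were 1 clone or a pool, or whether replicates were separate cultures, so p-values measure the spread between these libraries, which may be technical. Effects of SETD1B loss, of copy number and of any other difference between the cell populations cannot be told apart.

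RUNX proteins bind DNA through the Runt domain and do so well only as a pair with CBFB, a partner that does not bind DNA itself. In blood, RUNX1 is needed for stem cells and early lymphoid development, RUNX3 serves T and natural killer cells and activated B cells, and RUNX2 is best known from bone. ETS proteins share a winged helix domain that recognises a GGAA core, and RUNX1 and ETS1 are known to bind neighbouring sites together. ETS1 restrains the formation of plasma cells in mice, FLI1 and ETV6 are blood cell regulators often hit by translocations, ELF1 is a broadly expressed lymphoid factor, ETS2 acts downstream of RAS and MAP kinase signals, and GABPA, which works with the GABPB subunits, drives many housekeeping and mitochondrial genes.

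Libraries held between 28726108 and 34453249 counts, and 12907 genes were tested. Levels are given as CPM, read counts scaled to the TMM-adjusted library size. Each log2 fold change is the knockout value minus the control value in an edgeR quasi-likelihood fit over all tested genes, and a gene passed where its Benjamini-Hochberg adjusted p was under 0.05. SETD1B itself was not lower, at 77.6 ± 19.5 CPM in the knockouts and 56.1 ± 3.25 CPM in the controls (SD, n = 3 each; log2 0.47, edgeR adjusted p = 0.14). A total transcript level does not check a guide's edit, so the label was neither borne out nor contradicted by it. It was at 87.4, 90.2 and 55.1 CPM in knockout replicates 1, 2 and 3, and without replicate 3 it passed as higher (log2 0.66, edgeR adjusted p = 8.1e-07), as it did with DESeq2 and with the GC correction. On the second principal component knockout replicate 3 lay at -30.1, away from replicates 1 and 2 at 15 and 20.8, with the controls between -3.33 and 0.45. It also differed with GC content: in the 10% of genes lowest in GC its median deviation from the mean of all libraries was 0.14 on the log2(CPM + 1) scale, against -0.07 and -0.03 in the other knockouts, and in the 10% highest in GC it was -0.48, against 0.13 and 0.25. Calls on members that end or appear without this library are given both ways. All 10 B-cell markers checked were tested, with means of at least 80.7 CPM in the knockouts and 99.9 CPM in the controls, while 7 of 10 T-cell, 5 of 7 natural killer, 6 of 9 myeloid, 7 of 8 endothelial and all 10 megakaryocyte and erythroid markers stayed under 1 CPM in every library. Of the B-cell markers PAX5, CD22 and BCL6 rose, MS4A1 and EBF1 fell and 5 did not pass. Over all tested genes 5.71% rose and 9.33% fell. Without knockout replicate 3, 7 B-cell markers rose and 2 fell, where 44.4% of all tested genes passed. Some markers of other cell types were measurable, and they did not all go the same way. The 1 tested endothelial marker, PECAM1, rose to 17.8 ± 0.99 CPM in the knockouts, against 13.8 ± 0.97 CPM in the controls (log2 0.36, edgeR adjusted p = 0.033). That call ended with the replicate block and on leaving out any library but knockout replicate 3. Several other markers fell. Both tested natural killer markers fell, PRF1 to 3.42 ± 1.19 CPM in the knockouts, against 14.1 ± 0.84 CPM in the controls (log2 -2.04, edgeR adjusted p = 0.0026), and KLRK1 to 5.00 ± 0.36 CPM in the knockouts, against 16.4 ± 0.68 CPM in the controls (log2 -1.71, edgeR adjusted p = 1.1e-04). Of 3 tested myeloid markers ITGAM fell (log2 -1.61, edgeR adjusted p = 7.2e-04), LYZ fell (log2 -1.29, edgeR adjusted p = 0.032, lost without control replicate 1 or 2 or knockout replicate 1 or 2) and CD68 did not pass. Of 3 tested T-cell markers CD4 fell, and CD8A (log2 -0.55, edgeR adjusted p = 0.054) and CD247 (log2 0.27, edgeR adjusted p = 0.17) did not pass. For CD8A every knockout library lay below every control. With library size alone, limma-voom or the GC correction, 2 of the 3 T-cell markers fell. The same held without knockout replicate 1 or 3. CD3E and CD3G had 1 to 11 counts in every library, and CD3D, NCAM1, KLRD1, NCR1, MPO, S100A8 and S100A9 had 0. The summed natural killer list was 7.25 to 9.32 CPM in the knockouts and 29.9 to 31.2 CPM in the controls, and the myeloid list 4.24 to 5.63 CPM in the knockouts and 9.33 to 11.7 CPM in the controls. Their part in the results for the members was not tested.

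RUNX1 and GABPA were the members that fell, so the stretch before 1 RefSeq start of each is shown, together with that of RUNX3, which was nearly silent. The sequences are the 250 bases upstream of the start that RefSeq gives (GRCh38.p14), written 5′ to 3′ on the gene's strand, and capitals mark matches to an ETS motif (CCGGAAG) or a RUNX motif (TGTGGT or TGCGGT) on either strand. RefSeq entries were found for 7 of the 10 members, and CBFB, ETS1 and FLI1 had none in the table used.
RUNX1 (chr21:34888700-34888949, minus strand): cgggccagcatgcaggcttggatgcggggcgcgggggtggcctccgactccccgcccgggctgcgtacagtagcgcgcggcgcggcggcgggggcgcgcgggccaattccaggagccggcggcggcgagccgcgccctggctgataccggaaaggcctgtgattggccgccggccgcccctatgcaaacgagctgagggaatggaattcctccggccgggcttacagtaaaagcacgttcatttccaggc
GABPA (chr21:25734722-25734971, plus strand): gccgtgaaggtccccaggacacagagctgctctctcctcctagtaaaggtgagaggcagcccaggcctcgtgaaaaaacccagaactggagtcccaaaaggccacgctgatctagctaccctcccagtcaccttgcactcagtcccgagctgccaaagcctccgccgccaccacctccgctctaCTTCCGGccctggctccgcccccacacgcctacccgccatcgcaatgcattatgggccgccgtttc
RUNX3 (chr1:24965011-24965260, minus strand): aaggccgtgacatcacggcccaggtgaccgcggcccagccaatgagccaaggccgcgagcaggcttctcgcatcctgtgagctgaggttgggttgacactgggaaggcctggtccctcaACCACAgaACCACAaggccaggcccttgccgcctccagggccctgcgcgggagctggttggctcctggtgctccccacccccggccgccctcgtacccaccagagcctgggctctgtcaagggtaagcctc
The RUNX1 window lies well inside the gene's annotated span, so it is an internal start and not the outermost one, and the bases after it were not found in the GENCODE transcripts searched. It held no match to these letters. The GABPA window held 1 ETS match, read on the opposite strand as CTTCCGG, beginning 66 bases before the start. That window lies inside the annotated span of GABPA, which begins at 25734570, and inside that of ATP5J. The RUNX3 window held 2 RUNX matches, both read on the opposite strand as ACCACA, beginning 131 and 123 bases before the start. Part of it lies inside the annotated span of RUNX3, which ends at 24965121. Among 27305 promoters of the same length, 8.82% held an ETS match and 16.1% a RUNX match, and a match is a description of letters only. Counts per gene do not say which start was used.

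RUNX1 (chromosome 21, 34787801 to 36004667, hg38, minus strand) fell in the knockouts and had the largest change of the 7 tested members. It stood at 60.3, 56.9 and 55.1 CPM in knockout replicates 1, 2 and 3, against 85.1, 86.8 and 88.3 CPM in control replicates 1, 2 and 3. All 3 knockout libraries lay below all 3 controls, with means of 57.4 ± 2.69 CPM in the knockouts and 86.7 ± 1.59 CPM in the controls (SD, n = 3 each). The level fell by 33.8% (log2 -0.59, SE 0.06, edgeR adjusted p = 8.1e-04), and RUNX1 passed in all 15 alternative analyses, with log2 fold changes from -0.61 to -0.56. In these bulk libraries fewer cells with the transcript and less transcript per cell cannot be told apart.

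The other RUNX genes were close to silent in both groups. RUNX2, which SUPT3H overlaps on the opposite strand, had 0, 0 and 0 counts in the knockouts and 0, 2 and 0 in the controls. RUNX3, which in human B-cell lines carrying Epstein-Barr virus is known to repress RUNX1, had 6, 1 and 2 counts in the knockouts and 1, 3 and 1 in the controls. Neither gene was tested, and 3 counts, the limit that a count of 0 allows, correspond to 0.087 to 0.104 CPM per library, counting error only. Divided by exon length, RUNX1 made up 99.4 ± 0.47% of the summed RUNX counts in the knockouts and 99.7 ± 0.25% in the controls, a difference within the spread of the libraries (exact two-sided permutation test, p = 0.50; the smallest p this design allows is 0.10). RUNX1 was thus nearly the whole RUNX pool by RNA in knockout and control libraries alike.

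CBFB (chromosome 16, 67029116 to 67101058), the shared partner of the RUNX proteins, showed no detectable difference. It was measured at 179, 172 and 195 CPM in the knockouts, against 179, 184 and 182 CPM in the controls. The groups overlapped, and the log2 fold change was 0.00 with a 95% interval from -0.14 to 0.14 (edgeR adjusted p = 0.998). Its sign turned with the scaling, at 0.02 with RLE factors and -0.02 with library sizes alone, and it passed in 0 of 15 alternatives (edgeR adjusted p from 0.21 to 0.99). The ratio of RUNX1 to CBFB counts was 0.34, 0.33 and 0.28 in the knockouts and 0.48, 0.47 and 0.48 in the controls, without overlap (exact two-sided permutation test, p = 0.10, the smallest this design allows). This ratio, like that of ETS1 to ELF1 below, was formed after the levels had been seen.

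**Figure D1:**
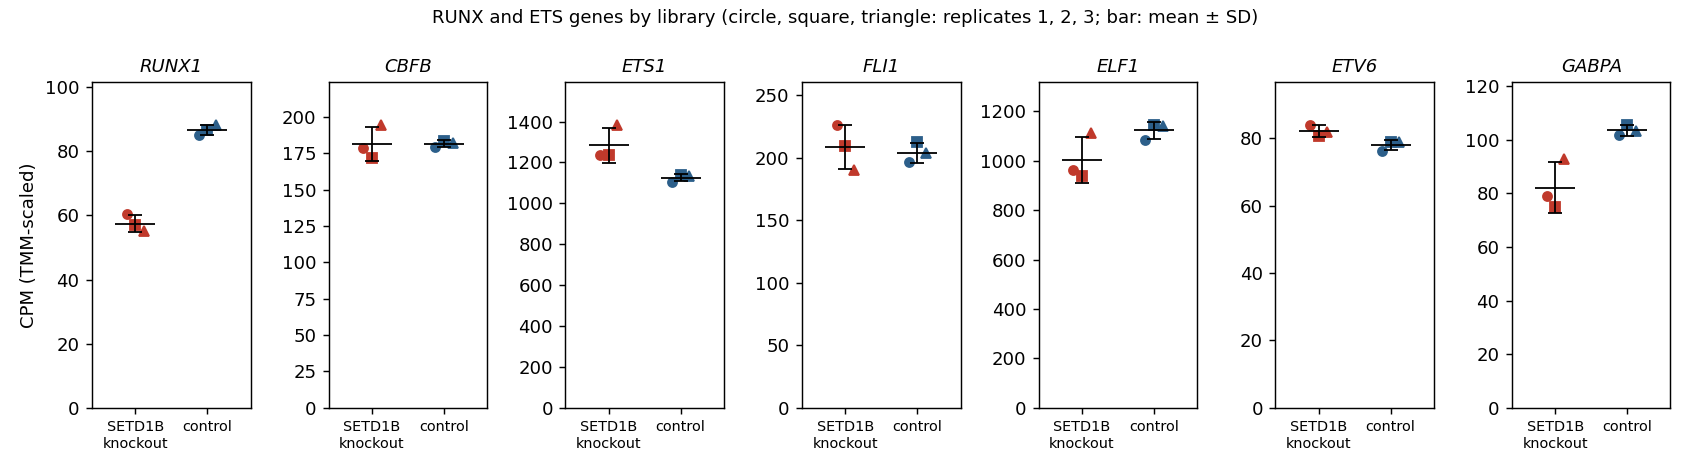
CPM of the 7 tested RUNX and ETS members in each library (vertical axes, each from 0), with knockout libraries left of controls, symbols for replicates and bars for the mean and SD. RUNX1 and GABPA show knockout values wholly below the controls, at 55.1 to 60.3 against 85.1 to 88.3 CPM for RUNX1.

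Among the 7 tested members 2 fell, RUNX1 and GABPA, 0 rose and 5 did not pass. Over all tested genes 15.0% passed, 9.33% lower and 5.71% higher in the knockouts. The median log2 fold change of the 7 members was 0.00, beside -0.01 over all tested genes. Groups did not overlap for 4 of the 7 members, RUNX1 and GABPA below and ETS1 and ETV6 above the controls, and the same was true of 37.7% of all tested genes. Without knockout replicate 3, ELF1 also fell and ETS1 rose, giving 3 lower and 1 higher, where 44.4% of tested genes passed, 22.8% lower and 21.6% higher. The share of all tested genes that passed is also given for the other settings where the number of members called moved from 2. It was 36.4% with GC correction, 14.5% with RLE scaling, 10.3% under the replicate block and 6.42% at an adjusted p under 0.01. On leaving out control replicate 1, 2 or 3 it was 6.44%, 5.98% or 6.35%, and on leaving out knockout replicate 1 or 2 it was 8.45% or 11.6%.

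GABPA (chromosome 21, 25734570 to 25772460, plus strand), the DNA-binding subunit of the GA-binding protein, fell less than RUNX1. Knockout replicates 1, 2 and 3 held 78.9, 74.7 and 92.7 CPM, and control replicates 1, 2 and 3 held 102, 106 and 103 CPM. The groups did not overlap, and the highest knockout value was that of replicate 3. The level fell by 20.6% (log2 -0.33, SE 0.08, edgeR adjusted p = 0.039). RLE scaling and the replicate block ended the call (edgeR adjusted p = 0.053 in each). Leaving out any single library but knockout replicate 3 also ended it (edgeR adjusted p from 0.087 to 0.18). Leaving out knockout replicate 3 gave a larger drop (log2 -0.43, edgeR adjusted p = 5.2e-06), and correcting for GC content gave log2 -0.36 (edgeR adjusted p = 4.8e-05). The 5′ end of GABPA overlaps that of ATP5J on the opposite strand, a gene that also fell (log2 -0.57, edgeR adjusted p = 0.0032), and the strand setting of the counting is not given, so reads from the overlap cannot be told apart.

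ETS1 and FLI1 are neighbours on chromosome 11, and neither passed. ETS1 (128458761 to 128587558) stood at 1237, 1234 and 1385 CPM in the knockouts, against 1105, 1139 and 1132 CPM in the controls. Every knockout library was above every control, but the log2 fold change of 0.19 (SE 0.06, 95% interval 0.05 to 0.33) was short of the threshold at an edgeR adjusted p of 0.078. Leaving out knockout replicate 3 made it smaller but past the threshold (log2 0.13, edgeR adjusted p = 0.0013), and ETS1 also rose with the GC correction (log2 0.19, edgeR adjusted p = 0.0020). FLI1 (128686535 to 128813267) held 226, 209 and 191 CPM in the knockouts and 196, 213 and 204 CPM in the controls. The groups overlapped (log2 0.03, 95% interval -0.14 to 0.20, edgeR adjusted p = 0.82), and the sign turned without knockout replicate 1 (log2 -0.01). SENCR, an antisense RNA that overlaps FLI1, had 16 to 21 counts per knockout library and 42 to 56 per control library.

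ELF1 (chromosome 13, 40932028 to 41061440) pointed the other way from ETS1. It was measured at 963, 938 and 1110 CPM in the knockouts, against 1083, 1145 and 1141 CPM in the controls. Knockout replicate 3 lay within the controls, and the log2 fold change of -0.16 (SE 0.07, 95% interval -0.34 to 0.01) did not pass (edgeR adjusted p = 0.19). Without that library ELF1 fell (log2 -0.24, edgeR adjusted p = 6.8e-05), and it also passed after the GC correction (log2 -0.18, edgeR adjusted p = 0.0030). Its start overlaps that of WBP4 on the opposite strand, so a few reads may belong to either gene. ETV6 (chromosome 12, 11649854 to 11895402), a repressor of the ETS family, held 83.9, 80.6 and 81.7 CPM in the knockouts and 76.1, 78.7 and 78.9 CPM in the controls, higher in all 3 knockouts by a small margin (log2 0.08, 95% interval -0.04 to 0.19, edgeR adjusted p = 0.39), and it passed in 0 of 15 alternatives. ETS2 (chromosome 21, 38805307 to 38824955) was at 0, 0 and 0 counts in the knockouts and at 2, 0 and 0 in the controls, and was not tested.

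The 4 members with the lowest GC content had their highest knockout value in replicate 3, namely GABPA (36.4% GC in its longest transcript), ELF1 (38.1%), CBFB (40.6%) and ETS1 (42.6%). FLI1 (42.7%) and RUNX1 (47.1%) had their lowest knockout value there, and ETV6 (47.3%) its middle one. The part that GC content plays in single members was not tested, but the GC-corrected log2 fold changes of GABPA, ELF1 and ETS1 are those given above. With the same correction RUNX1 was at -0.58, CBFB at -0.01, FLI1 at 0.04 and ETV6 at 0.09, and of these 4 RUNX1 passed.

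**Figure D2:**
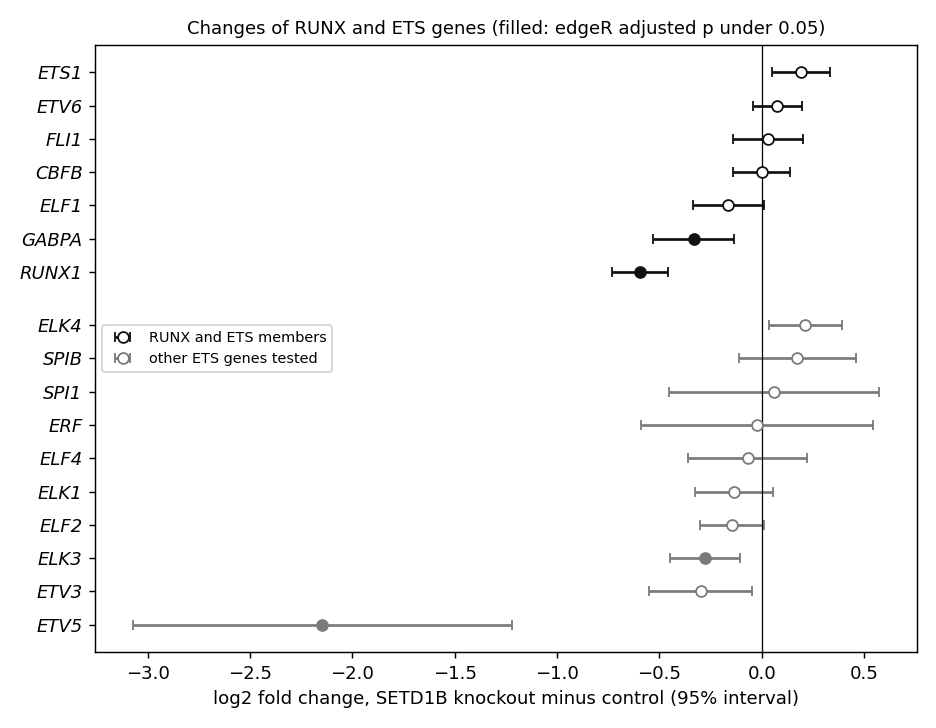
Log2 fold changes, knockout minus control, with 95% intervals for the 7 tested members (black, above) and the 10 other tested ETS genes (grey, below), where filled points have an edgeR adjusted p under 0.05. RUNX1 at -0.59 and GABPA at -0.33 are filled among the members, ELK3 at -0.27 and ETV5 at -2.15 among the others.

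Both members that fell lie on chromosome 21, where genes were lower as a whole. Of its 124 tested genes 114 had a log2 fold change below 0 and 57.3% fell, with a median of -0.42, while the medians of the 22 other chromosomes lay between -0.10 and 0.03. GABPA, at -0.33, was above that median, with 72 of the genes lower and 51 higher than it. RUNX1, at -0.59, was below it and outside the middle range of the chromosome (lower quartile -0.54, upper quartile -0.24), with 25 genes lower and 98 higher. The chromosome's shift was present in every knockout library: on the log2(CPM + 1) scale, relative to the control mean, its median was -0.36, -0.33 and -0.39 in knockout replicates 1, 2 and 3 and between -0.01 and 0.01 in the controls. RUNX1 deviated by -0.52, -0.60 and -0.65 in the same knockout libraries, further than the chromosome in each, and GABPA by -0.39, -0.46 and -0.16, less than the chromosome in replicate 3 only. The added 1 shrinks the deviations of low genes more than those of RUNX1 and GABPA. The chromosome's median may therefore be understated on this scale, and in the fit GABPA lay above the median of -0.42.

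When libraries were scaled on the other chromosome 21 genes, so that a fold change is relative to that chromosome, GABPA had a log2 fold change of 0.04 (SE 0.09, edgeR adjusted p = 0.75 over the 124 genes), which turned to -0.06 without knockout replicate 3. RUNX1 was still lower at -0.23 (SE 0.06, edgeR adjusted p = 0.037), where 14.5% of the chromosome's tested genes passed and 11.3% were lower. This call held in 1 of 9 alternatives, the fit without knockout replicate 3 (log2 -0.20, edgeR adjusted p = 0.0022). In the other alternatives RUNX1 stayed negative, from -0.23 to -0.16, with edgeR adjusted p from 0.074 to 0.29. The nearest tested protein-coding genes on either side of the 3 members of this chromosome also fell in the comparison over all genes. RCAN1, an inhibitor of calcineurin, and SETD4, on either side of RUNX1, had log2 fold changes of -0.45 and -0.31. For GABPA they were ATP5J, a subunit of ATP synthase, and the methyltransferase gene N6AMT1, at -0.57 and -0.48. N6AMT1 starts at position 28872191, far from the end of GABPA at 25772460. For the silent ETS2 they were the kinase gene DYRK1A (-0.27) and PSMG1, a proteasome assembly factor (-0.64; edgeR adjusted p from 5.3e-04 to 0.024 for these 6 genes). Being picked among tested genes, they do not show whether the region around ETS2 was represented in the RNA. The ETS gene ERG lies between DYRK1A and ETS2 and was not tested. It had 1, 1 and 2 counts in the knockouts and 1, 0 and 0 in the controls. The calls of RCAN1, SETD4 and DYRK1A ended with the replicate block and on leaving out any control library. That of N6AMT1 ended on leaving out control replicate 1 or 2. All 4 ended without knockout replicate 1, and that of RCAN1 also without knockout replicate 2 (edgeR adjusted p up to 0.12).

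**Figure D3:**
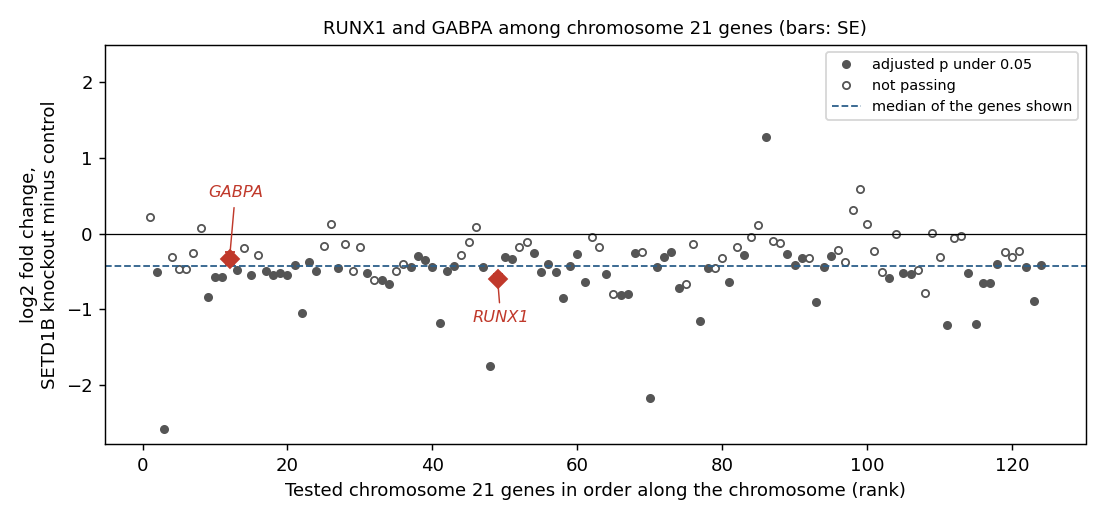
Log2 fold changes, knockout minus control, of the 124 tested chromosome 21 genes by their order along the chromosome (horizontal axis, rank), with RUNX1 and GABPA as red diamonds with SE and the median of -0.42 as a dashed line. Most points lie below 0, and the diamonds lie on either side of the dashed line.

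**Figure D4:**
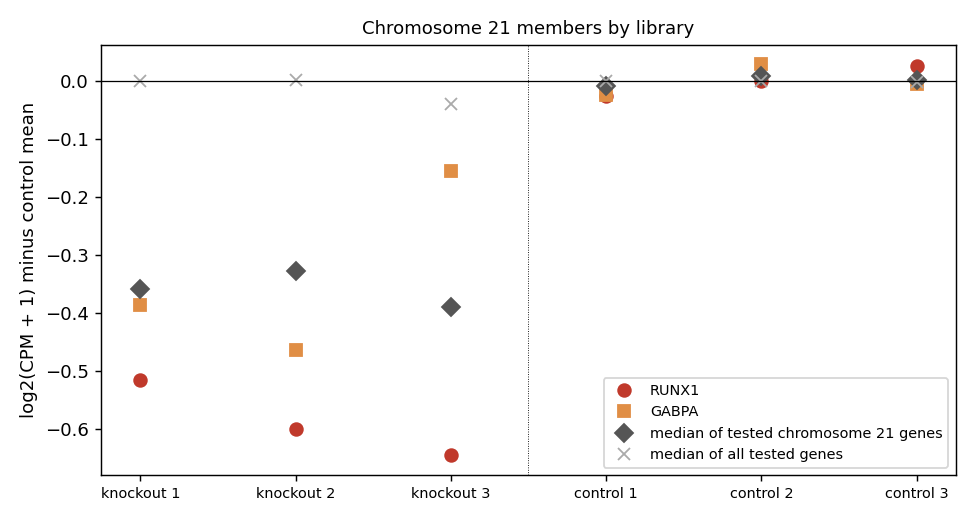
Deviation from the control mean on the log2(CPM + 1) scale (vertical axis) for RUNX1, GABPA, the median of tested chromosome 21 genes and the median of all tested genes, in each library, knockouts left of controls. RUNX1 lies below the chromosome median in all 3 knockouts, while the median of all genes stays between -0.04 and 0.00.

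Compared per exon length, ELF1 and ETS1 were by far the most abundant ETS transcripts. ELF1 reached 232 ± 21.5 CPM per kb in the knockouts and 259 ± 7.98 CPM per kb in the controls, and ETS1 180 ± 12.03 CPM per kb in the knockouts and 157 ± 2.48 CPM per kb in the controls (SD, n = 3 each). FLI1 came next at 25.5 ± 2.19 CPM per kb in the knockouts and 24.99 ± 0.99 CPM per kb in the controls, and its distance from ETS1 was far larger than their spread. Below it SPI1, which encodes PU.1, and its relative SPIB were at 19.7 ± 5.94 and 18.3 ± 3.03 CPM per kb in the knockouts and 18.9 ± 1.42 and 16.2 ± 0.76 CPM per kb in the controls. GABPA, at 15.1 ± 1.74 CPM per kb in the knockouts and 19.1 ± 0.36 CPM per kb in the controls, was within the spread of SPI1, and ETV6 followed at 11.6 ± 0.24 CPM per kb in the knockouts and 11.01 ± 0.22 CPM per kb in the controls, near ELK1. RUNX1 was lower still at 3.69 ± 0.17 CPM per kb in the knockouts and 5.57 ± 0.10 CPM per kb in the controls, and CBFB stood at 44.0 CPM per kb in knockouts and controls alike. These lengths are the union of all annotated exons, so a gene with many unused exons is understated.

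ELF1 and ETS1 together held 74.7 ± 3.14% of the summed ETS level in the knockouts and 74.8 ± 0.63% in the controls, while the ratio between them differed without overlap of the groups. The ratio of ETS1 to ELF1 per length was 0.78, 0.80 and 0.76 in knockout replicates 1, 2 and 3, against 0.62, 0.60 and 0.60 in control replicates 1, 2 and 3. All knockout ratios were above all control ratios, and they varied little among knockouts although replicate 3 was highest for both genes. The means were 0.78 ± 0.02 in the knockouts and 0.61 ± 0.01 in the controls (exact two-sided permutation test, p = 0.10, the smallest this design allows).

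**Figure D5:**
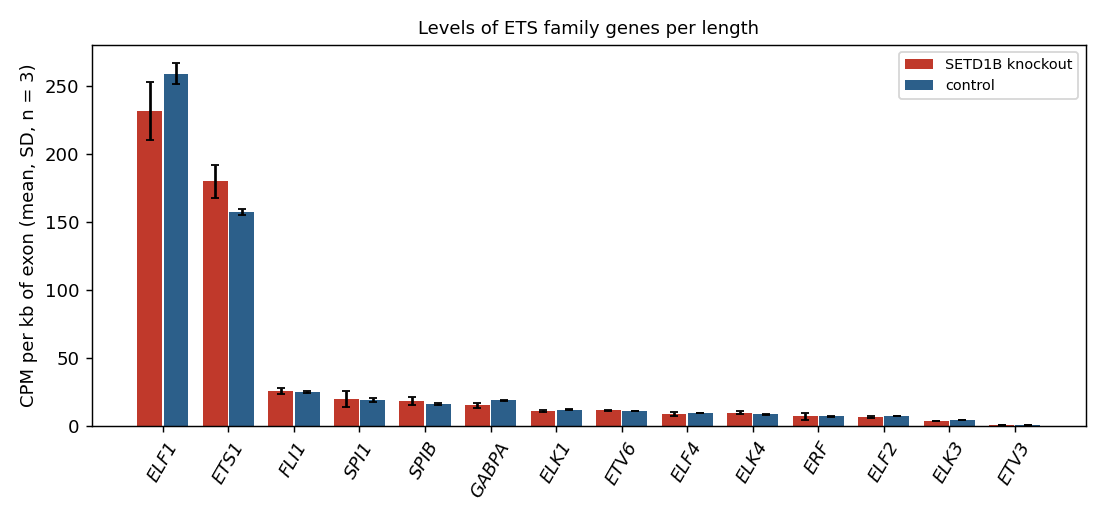
Mean level per kb of exon (vertical axis, CPM per kb, with SD over 3 libraries) of the 14 ETS family genes above 0.5, knockouts in red left of controls in blue. ELF1 and ETS1 exceed 150 in each group, and no other ETS gene exceeds 26.

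The family has 28 ETS genes, 6 of them members here. Of the 22 others 10 were tested, of which 2 fell, 0 rose and 8 did not pass, with a median log2 fold change of -0.10. In the same fit 9.33% of all tested genes fell and 5.71% rose. ELK3, a ternary complex factor that acts with serum response factor, stood at 16.7, 17.1 and 18.5 CPM in the knockouts, against 21.1, 21.5 and 20.7 CPM in the controls (log2 -0.27, SE 0.07, edgeR adjusted p = 0.045). Its call was lost in 9 of 15 alternatives, on leaving out any library but knockout replicate 3 among them, with edgeR adjusted p up to 0.21. ETV5, a target of growth factor signals that was named after its values were seen, had 8, 2 and 4 counts in the knockouts and 25, 22 and 18 in the controls (log2 -2.15, edgeR adjusted p = 0.012), and the call ended without control replicate 1 or 2 (edgeR adjusted p up to 0.058). SPI1 (log2 0.06), SPIB (0.17), ELK4 (0.21), ELF4 (-0.07), ELF2 (-0.14), ELK1 (-0.13), ETV3 (-0.30) and ERF (-0.02) did not pass (edgeR adjusted p from 0.11 to 0.96). Of the 12 others that were not tested, 7 had 0 counts in every library. Without knockout replicate 3, 4 of the 10 rose and 4 fell, where 44.4% of all tested genes passed.

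Partner proteins of the RUNX and ETS factors went both ways. Of 20 listed 18 were tested, and 2 rose, 2 fell and 14 did not pass (median log2 fold change 0.00). Over all tested genes 5.71% rose and 9.33% fell. GABPB1, the activating partner of GABPA, was at 53.6, 51.2 and 62.1 CPM in the knockouts, against 42.8, 44.5 and 43.1 CPM in the controls, so that it rose (log2 0.36, SE 0.08, edgeR adjusted p = 0.028) while GABPA fell. That call ended with the replicate block and on leaving out any control library or knockout replicate 1 (edgeR adjusted p up to 0.12). PAX5, the B-cell identity factor that recruits ETS1 to the CD79A promoter in mice, rose as well, at 929, 908 and 730 CPM in the knockouts and 539, 542 and 545 CPM in the controls (log2 0.66, SE 0.09, edgeR adjusted p = 0.0040). Its knockout libraries were all above the controls, with replicate 3 the lowest of them. PAX5 is also on the B-cell marker list, of which 3 rose and 2 fell. Of 5 tested genes of the Groucho family 2 fell, TLE1 and TLE4, while TLE3 (log2 -0.34), TLE2 (0.36) and AES (0.09) did not pass (edgeR adjusted p from 0.11 to 0.75). TLE1 averaged 11.3 ± 1.10 CPM in the knockouts and 17.5 ± 0.74 CPM in the controls (log2 -0.63, edgeR adjusted p = 0.0055). TLE4 averaged 27.8 ± 0.44 CPM in the knockouts and 37.5 ± 1.91 CPM in the controls (log2 -0.43, edgeR adjusted p = 0.0050). PAX5, TLE1 and TLE4 passed in 15 of 15 alternatives. Without knockout replicate 3, 10 of 19 tested partners rose and 3 fell, in a fit where 21.6% of all tested genes rose and 22.8% fell.

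Among 15 genes listed as RUNX targets 9 were tested, of which 3 fell, 0 rose and 6 did not pass, with a median log2 fold change of -0.11. Beside this, 9.33% of all tested genes fell and 5.71% rose. The list, like the other gene lists here, was chosen with earlier results of these data known, so these counts are a description. SPI1 stands on this list as well as among the ETS genes, and CD79A on this and the ETS target list. RAG1, the recombinase of immunoglobulin and T-cell receptor genes, was at 498 ± 37.9 CPM in the knockouts and 1734 ± 20.96 CPM in the controls (log2 -1.80, SE 0.07, edgeR adjusted p = 1.8e-05). CD4, a T-cell coreceptor that RUNX proteins silence in cytotoxic T cells, stood at 15.3 ± 2.32 CPM in the knockouts and 50.3 ± 1.64 CPM in the controls (log2 -1.71, SE 0.11, edgeR adjusted p = 1.8e-04). BCL2L11, which encodes the death protein BIM, was at 81.8 ± 6.55 CPM in the knockouts and 153 ± 2.37 CPM in the controls (log2 -0.91, SE 0.07, edgeR adjusted p = 3.3e-04). All 3 passed in 15 of 15 alternatives. CD4 is also a T-cell marker: the summed T-cell list was 29.2 to 33.2 CPM in the knockouts and 65.1 to 68.3 CPM in the controls, and of its other 2 genes above 1 CPM, CD8A averaged 4.58 CPM in the knockouts and 6.69 CPM in the controls and CD247 averaged 10.3 CPM in the knockouts and 8.54 CPM in the controls. The part of these transcripts in the CD4 result was not tested. Among the 9 RUNX targets without knockout replicate 3, 3 rose and 3 fell, where 44.4% of all tested genes passed.

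Of 17 genes listed as ETS targets 16 were tested, 2 rose, 4 fell and 10 did not pass (median log2 fold change -0.01). The shares over all tested genes were 5.71% higher and 9.33% lower. PRDM1, the plasma cell factor that ETS1 restrains in mice, was at 3.03 ± 0.27 CPM in the knockouts and 8.98 ± 0.59 CPM in the controls (log2 -1.57, edgeR adjusted p = 3.0e-04). MS4A1, which encodes CD20, was at 259 ± 29.9 CPM in the knockouts and 441 ± 8.83 CPM in the controls (log2 -0.77, edgeR adjusted p = 0.0013). MS4A1 is also on the B-cell marker list. The inhibitory Fc receptor gene FCGR2B (log2 -0.53) and the E protein inhibitor ID2 (log2 -0.50) fell, and BTK, the kinase downstream of the B-cell receptor, rose (log2 0.57; edgeR adjusted p from 0.0022 to 0.0049 for these 3). MCL1, a survival gene of the BCL2 family that was named after its values were seen, also rose (log2 0.27, edgeR adjusted p = 0.021). Its call ended with the replicate block and on leaving out any control library or knockout replicate 1 (edgeR adjusted p up to 0.11). Of the mitochondrial genes that GABPA is known to drive, TFAM (log2 0.02), TFB1M (-0.07), TFB2M (0.10), COX4I1 (-0.12) and COX5B (-0.13) did not pass (edgeR adjusted p from 0.13 to 0.89). Without knockout replicate 3, 4 of the 16 ETS targets rose and 7 fell, against the same 44.4% of all tested genes.

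The genes whose profile over the 6 libraries was closest to that of RUNX1, by root mean square difference of centred log2(CPM + 1) values among genes with at least 5 CPM, were IRF2BP2, a transcriptional corepressor, at 0.028, FCMR, which encodes the receptor for the constant part of IgM, at 0.031, and the tetraspanin gene CD63 at 0.032. IRF2BP2 stood at 93.2, 87.9 and 85.0 CPM in the knockouts and 129, 128 and 131 CPM in the controls. FCMR had 23.7 ± 1.58 CPM in the knockouts and 37.0 ± 0.96 CPM in the controls, and CD63 had 47.4 ± 1.62 CPM in the knockouts and 70.4 ± 0.46 CPM in the controls (SD, n = 3 each). These genes were chosen for their likeness, and their values are a description.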

How the data were processed

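RNA from 6 libraries was made with a stranded poly(A) kit, per the labels' protocols. The build was hg38 and the tools named were featureCounts, HISAT2, Trimmomatic, CASAVA 1.8 and DESeq2, per the submitters' processing notes. Neither the annotation nor the strand setting is stated, so overlapping genes are uncertain. The authors deposited whole-number read counts per gene, unnormalised, with 0 per-sample columns unused; their table of log2 values, derived from these counts, was not used. Groups came from titles. The members and gene lists were chosen with earlier results of these data known.

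Counts were analysed with edgeR 4.0.16 in R 4.3.3 (filterByExpr, TMM, robust quasi-likelihood, SE as the absolute log2 fold change over the square root of F, intervals from its t distribution). Alternatives were DESeq2 1.42.0, limma-voom 3.58.1, RLE scaling, library size alone, TMM without chromosome 21, no filter, at least 5 CPM in 3 libraries, the replicate block, a GC trend as offset, adjusted p under 0.01 and leaving out each library. Positions, GC content and exon lengths came from GENCODE 29 (hg38); 24627 of 26485 symbols matched. No 2 libraries agreed within sampling noise (chi-square per degree of freedom from 1.8). Simulated counts for knockout against control (12803 genes, 200 of them changed) gave back 40.9%, 90.9% and 97% of genes planted at log2 changes of 0.5, 1 and 2, and 7.36% of the calls were false. The simulated counts were drawn gene by gene, without the GC shift of knockout replicate 3, and far more genes, 1941, were called in the data. These rates may therefore not hold for the data.

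Genes named beside the members were SETD1B, up to 5 called genes of each list with at least 1 CPM and the largest change, the tested coding genes beside each chromosome 21 member, and the 3 profiles nearest to RUNX1.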

Additional observations from a re-analysis of the deposited data

How the results depend on the processing

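RUNX1 fell in all 15 alternatives run on it, and the results for CBFB, FLI1 and ETV6 stayed short of the threshold in all of theirs. The number of members called was 2 and became 1 with RLE scaling, with the replicate block and at an adjusted p under 0.01, 4 after the GC correction, and 1 to 4 on leaving out a library, with 4 without knockout replicate 3. GABPA missed the threshold with RLE scaling (log2 -0.32, edgeR adjusted p = 0.053) and with the replicate block (log2 -0.34, edgeR adjusted p = 0.053) and ranged from -0.43 to -0.27 on leaving out a library. ETS1 and ELF1 passed after the GC correction (log2 0.19 and -0.18) and ranged from 0.13 to 0.24 and from -0.24 to -0.11 on leaving out a library. CBFB, at 0.00, turned to -0.018 with library size alone, -0.0022 with TMM without chromosome 21, -0.0027 with no filter, -0.0061 with the stricter filter, -0.0012 with limma-voom, -0.0016 with the replicate block and -0.0090 with the GC correction, and ranged from -0.052 to 0.040 on leaving out a library. FLI1 ranged from -0.013 to 0.094. Of the listed partners, targets and other ETS genes, 15 were called, against 28 after the GC correction and 11 to 36 on leaving out a library. The share of all tested genes called was 15.0%, against 36.4% after the GC correction and 5.98% to 44.4% on leaving out a library. Relative to chromosome 21, 1 member was called, against 0 with no filter, the stricter filter, the replicate block and an adjusted p under 0.01, and 0 to 1 on leaving out a library; GABPA there ranged from -0.061 to 0.13. The difference in the RUNX1 share was -0.30 percentage points, and -0.48 to -0.03 on leaving out a library. The causes were not tested. Same-numbered libraries did not deviate together (r = -0.01, -0.10 and 0.08 for numbers 1, 2 and 3). With 3 libraries per group this cannot settle whether the numbers pair the samples, and the labels do not say. The block moved the count of called genes to 1326 from 1941. With 1 library left out, the remaining 2 of a group carry its spread. RUNX2, RUNX3 and ETS2 were too low in counts for any call.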
